A study of Mus musculus with 10 samples.

Results

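The genes described here encode the enzymes of glycolysis and of the pentose phosphate pathway, the lactate dehydrogenases, the carriers that move glucose, fructose and lactate across membranes, and the enzymes that admit pyruvate to mitochondria. They were taken by gene name, 34 genes of the 55401 in the table. Aldoa is listed under a pair of gene IDs, so the 34 genes have 35 rows, and all 35 were among the 16316 rows tested. Cerebral cortex was sampled from 10 mice, 5 of which had a traumatic brain injury (TBI). The other 5 are named Sham in the sample titles and naive in the series design. How the injury was made, how long before sampling, and the age, sex and strain of the mice are not given in the sources used here. Of the 35 rows, only those of hexokinases Hk2 and Hk3 passed the test between TBI and Sham, and both were higher in TBI.

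Glycolysis splits glucose into pyruvate, which is either reduced to lactate or oxidised in mitochondria, and the pentose phosphate pathway branches off after the hexokinase step to make NADPH and ribose phosphate. In brain many steps have isoforms that are used unequally by cell type: enolase Eno2 and the glucose carrier Slc2a3 are known from neurons, aldolase Aldoc from astrocytes, the fructose carrier Slc2a5 from microglia, and hexokinase Hk3 from myeloid cells. Lactate made by glia is held to pass to neurons through the monocarboxylate transporters, Slc16a1 and Slc16a3 on the glial and vascular side and Slc16a7 on neurons.

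Total counts per library ranged from 47.6 to 71.3 megacounts in the deposited table, in which several counts appear to stand for 1 sequenced fragment. Levels are given as FPKM (fragments per kilobase of transcript, scaled to the size of the library), and differences as the log2 fold change of TBI over Sham in the counts, from edgeR's quasi-likelihood F test with Benjamini-Hochberg adjustment over all tested genes and a threshold of 0.05. In cortex as a whole, 4.04% of tested genes passed it, 3.57% higher and 0.472% lower in TBI, and the median log2 fold change was -0.01. In bulk tissue, fewer cells of a type and less RNA per cell cannot be told apart.

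The members spanned a 653-fold range of mean FPKM, with Aldoa highest and Slc16a3 lowest. Together they summed to 2199.4 ± 86.6 FPKM in TBI and 2120.7 ± 86.2 FPKM in Sham (SD, n = 5 each). The median log2 fold change over the 35 rows was 0.04, and 16 rows lay within 0.1 of no change. The 2 called rows are 5.71% of the 35, against 4.04% of all tested genes. No member was called lower by edgeR, DESeq2 or limma. At an unadjusted p under 0.05, which 15.0% of all tested genes reached, 7 rows were higher and 2 (Ldha and Gpi1) were lower. For 3 rows, Hk2, Hk3 and Aldoc, the FPKM of the groups did not overlap, 8.57% of the members against 6.33% of all tested genes. All 3 were higher in TBI, as were 5.60% of all tested genes, and 0 members were lower without overlap, against 0.729% of all tested genes. Of the 33 rows that missed the threshold, 22 had a 95% interval within 0.5 of 0 on the log2 scale, a change of at most 1.41-fold either way.

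**Figure D1:**
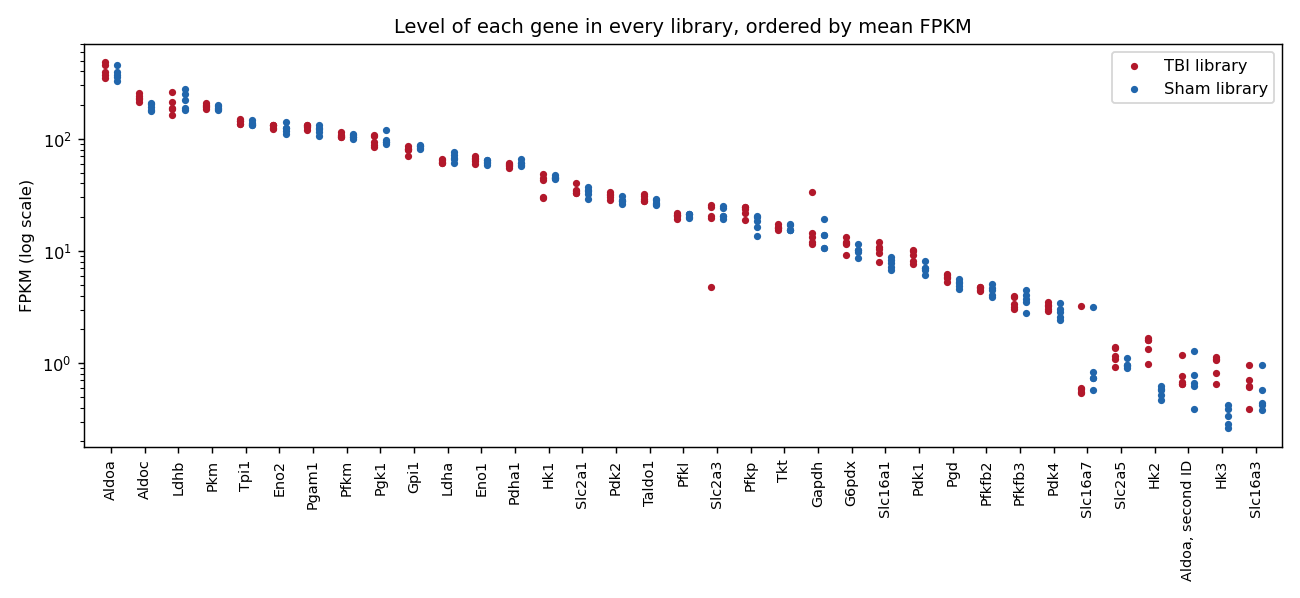
FPKM of each of the 35 rows on a log scale, ordered by the mean over all libraries, with 1 point per library (n = 5 TBI, red, left of each gene; n = 5 Sham, blue, right). The groups stand apart for Hk2 and Hk3 near the low end and for Aldoc near the high end, and single libraries stand apart for Slc2a3, Gapdh and Slc16a7.

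Hexokinases trap glucose in the cell by phosphorylating it. Hk1, the main form of brain, made up nearly all hexokinase FPKM in both groups, 94.0% ± 2.20 in TBI and 98.1% ± 0.234 in Sham (SD, n = 5 each). Hk2, an inducible form known from muscle and from growing or activated cells, and Hk3, the myeloid form, were low in Sham cortex and rose in TBI. Hk2 (ENSMUSG00000000628) lies on the minus strand of chromosome 6 at 82725025 to 82774454, and Hk3 (ENSMUSG00000025877) on the minus strand of chromosome 13 at 55005985 to 55021385, in the mm10 coordinates of the table.

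The 250 bases upstream of the start of these genes are shown because they are the members whose transcript levels differed between the groups. They are from RefSeq on GRCm38.p6, 5′ to 3′ on the gene's strand, with Hk2 at chr6:82774455-82774704 and Hk3 at chr13:55021386-55021635. Capitals mark matches, on either strand, to ACGTG, the core recognised by hypoxia-inducible factors and other helix-loop-helix proteins, or to GAGGAA, a core of the myeloid ETS factor PU.1.
Hk2: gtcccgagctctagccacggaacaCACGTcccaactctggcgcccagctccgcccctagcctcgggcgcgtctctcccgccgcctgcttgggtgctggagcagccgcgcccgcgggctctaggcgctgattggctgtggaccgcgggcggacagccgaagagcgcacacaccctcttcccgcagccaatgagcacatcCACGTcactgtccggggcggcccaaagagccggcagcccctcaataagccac
Hk3: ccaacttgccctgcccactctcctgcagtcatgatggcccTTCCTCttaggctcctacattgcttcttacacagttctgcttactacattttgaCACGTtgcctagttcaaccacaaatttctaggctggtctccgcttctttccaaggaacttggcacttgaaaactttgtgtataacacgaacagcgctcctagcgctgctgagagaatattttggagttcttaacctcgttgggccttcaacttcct

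The Hk2 window held ACGTG, read as CACGT, at 226 and 52 bases before the start. The Hk3 window held CACGT at 156 and TTCCTC, the reverse complement of GAGGAA, at 210 bases before the start. Of the 32851 promoter windows of the same length, 16.6% held ACGTG and 23.3% held GAGGAA, and GCGTG, the other core of hypoxia-inducible factors, was in 28.2%. Of the 49 windows found for 32 of the 34 members, 36.7% held ACGTG, 24.5% held GAGGAA and 53.1% held GCGTG. Promoters of Slc16a7 and Slc2a3 were not used here. A match is a description of the letters and no evidence of binding.

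Hk2 had 1.6, 1.61, 1.66, 0.978 and 1.34 FPKM in TBI libraries 1 to 5, against 0.520, 0.580, 0.620, 0.464 and 0.587 FPKM in Sham libraries 1 to 5. Every TBI library was above every Sham library, and TBI 4 was the lowest of its group. The means were 1.44 ± 0.286 FPKM in TBI and 0.554 ± 0.0623 FPKM in Sham (SD, n = 5 each), a log2 fold change of 1.33 (approximate SE 0.16, 95% interval 0.99 to 1.68), or 2.52-fold, with an edgeR adjusted p of 8.8e-04.

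Hk3 had 1.08, 0.821, 1.14, 0.644 and 1.06 FPKM in TBI, against 0.337, 0.420, 0.387, 0.261 and 0.286 FPKM in Sham. The groups did not overlap, and TBI 4 was again the lowest TBI library. On the log2 scale the fold change was 1.44 (approximate SE 0.20, 95% interval 1.0 to 1.88), or 2.72-fold, with an edgeR adjusted p of 0.0019. Hk3 reached the minimum level for testing, 0.5 FPKM, in the 5 TBI libraries and in 0 Sham libraries, so it entered the test only through the group in which it was high. With no such minimum its log2 fold change was 1.45 and its edgeR adjusted p 0.003.

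Hk1 went the other way without passing the test. It had 29.5, 48.8, 30.6, 44.9 and 42.6 FPKM in TBI, against 46.1, 47.6, 44.9, 45.0 and 43.5 FPKM in Sham. TBI 1 and TBI 3 lay well below the other 8 libraries, which spanned 42.6 to 48.8 FPKM. The log2 fold change was -0.25 (approximate SE 0.13, 95% interval -0.54 to 0.04, edgeR adjusted p 0.42), and without TBI 1 and TBI 3, an alternative chosen after seeing the data, it was -0.04 (edgeR adjusted p 0.86). The cause of the low values was not tested.

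**Figure D2:**
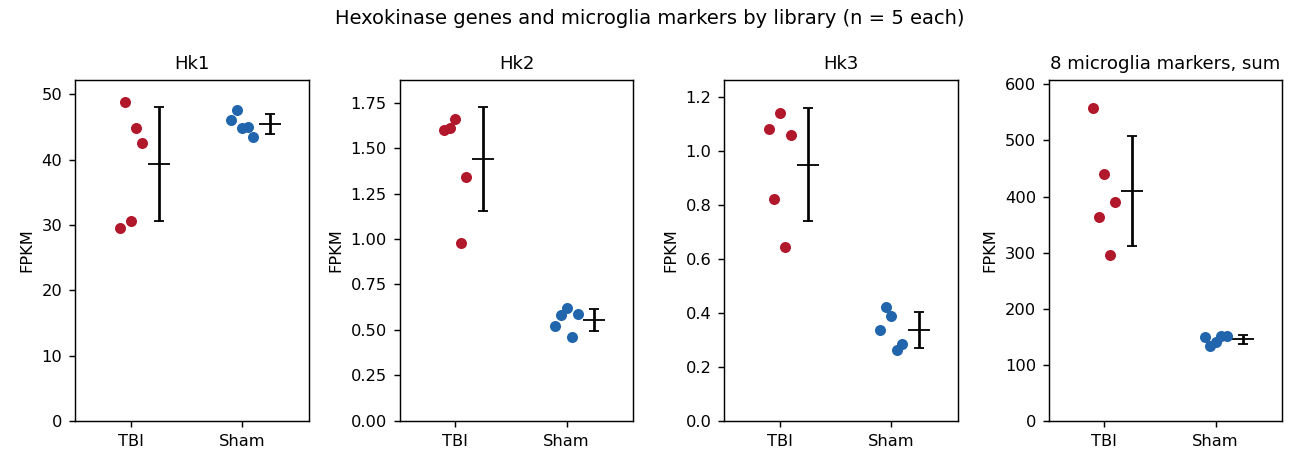
FPKM of Hk1, Hk2, Hk3 and the sum of 8 microglia markers, 1 point per library (n = 5 TBI, left; n = 5 Sham, right), with bars for mean ± SD. TBI libraries lie above all Sham libraries for Hk2, Hk3 and the marker sum, whereas for Hk1 TBI 1 and TBI 3, at 29.5 and 30.6 FPKM, lie below the rest.

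The summed FPKM of microglia, astrocyte and myeloid markers was higher in TBI, as Hk2 and Hk3 were. The summed FPKM of 8 microglia markers, C1qa and C1qb the highest, was 295 to 558 in TBI and 134 to 152 in Sham. Of the 8, 7 were called higher and P2ry12 was not (log2 fold change -0.07, edgeR adjusted p 0.93). The sum of 8 markers of monocytes, macrophages and neutrophils, led by Lyz2 and Csf3r, was 31.8 to 114 FPKM in TBI and 7.49 to 8.84 FPKM in Sham. Of the 4 tested, Lyz2 and Csf3r were called higher and Ly6c2 and Mrc1 were not. Ccr2, Plac8, S100a8 and S100a9 were too low to be tested. The sum of 7 astrocyte markers, led by Gfap and Slc1a3, was 353 to 523 FPKM in TBI and 176 to 215 FPKM in Sham, with 3 of 7 called higher. These were the 3 of 10 marker lists whose sums differed between TBI and Sham in an exact two-sided permutation test (adjusted p = 0.026 each). The markers were chosen with earlier results of these data known, so these p-values are no independent support.

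TBI 4 had the lowest sum of the TBI group for each of these 3 lists, as it had for Hk2 and Hk3. Per 100 FPKM of microglia markers, a scaling chosen after seeing the data, Hk2 was 0.356 ± 0.0582 in TBI and 0.383 ± 0.0573 in Sham, and Hk3 was 0.233 ± 0.0311 in TBI and 0.235 ± 0.059 in Sham (SD, n = 5 each), and the groups overlapped for both. They also overlapped per 100 FPKM of astrocyte markers, with Hk2 at 0.277 to 0.318 in TBI and 0.220 to 0.353 in Sham, and Hk3 at 0.157 to 0.251 in TBI and 0.124 to 0.220 in Sham. That overlap rested on Gfap, the reactive astrocyte filament, which averaged 260 FPKM in TBI and 38.3 FPKM in Sham. The other 6 astrocyte markers summed to 189 to 228 FPKM in TBI and 148 to 174 FPKM in Sham, and per 100 FPKM of them the groups did not overlap, with Hk2 at 0.519 to 0.784 in TBI and 0.273 to 0.418 in Sham, and Hk3 at 0.341 to 0.529 in TBI and 0.154 to 0.261 in Sham. Without the highest microglia marker, C1qa, the groups still overlapped, with Hk2 at 0.426 to 0.625 in TBI and 0.404 to 0.577 in Sham, and Hk3 at 0.286 to 0.393 in TBI and 0.227 to 0.403 in Sham. Per 100 FPKM of endothelial markers they did not overlap, with Hk2 at 3.10 to 5.19 in TBI and 1.58 to 2.47 in Sham, and Hk3 at 2.04 to 3.49 in TBI and 0.877 to 1.54 in Sham. The microglia sum without C1qa still held C1qb, whose log2 fold change was 1.91, against 1.85 for C1qa. Hk2 and Hk3 were not scaled to the monocyte, macrophage and neutrophil list, whose sum was 9.29-fold higher in TBI. Lyz2 made up most of that sum, on average 67.3 of 75.3 FPKM in TBI and 5.02 of 8.11 FPKM in Sham. No marker of the 10 lists was at 0 in all libraries, and the part of these cells in the hexokinase result was not tested.

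In upper glycolysis, from glucose phosphate to triose phosphates, 0 of 10 rows were called by edgeR, and the median log2 fold change was 0.02. At an unadjusted p under 0.05, 2 rows (Pfkp and Aldoc) were higher and 1 (Gpi1) lower, and DESeq2 and limma each called 1 row, Aldoc. Aldoc, the aldolase of astrocytes, had 215, 241, 229, 258 and 231 FPKM in TBI, against 194, 176, 180, 210 and 204 FPKM in Sham. The groups did not overlap, by a narrow margin between TBI 1 and Sham 4. Its log2 fold change was 0.24 (approximate SE 0.07, 95% interval 0.10 to 0.39) and the edgeR adjusted p 0.073. DESeq2 gave an adjusted p of 0.018, limma one of 0.037, and edgeR without Sham 4 one of 0.044, so the call depended on the tool and on that library.

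Aldoa, the aldolase of muscle and of most brain cells, had 459, 368, 482, 396 and 349 FPKM in TBI, against 369, 456, 330, 396 and 356 FPKM in Sham. It was the most abundant member and the groups overlapped over most of their range. Aldoa had a log2 fold change of 0.07 (approximate SE 0.11, 95% interval -0.17 to 0.31, edgeR adjusted p 0.84). The second Aldoa ID, ENSMUSG00000114515, averaged 0.789 ± 0.229 FPKM in TBI and 0.744 ± 0.328 FPKM in Sham.

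The phosphofructokinases commit sugar to glycolysis. Pfkm, the muscle-type subunit and the highest of them, averaged 107 ± 4.23 FPKM in TBI and 105 ± 4.39 FPKM in Sham (log2 fold change -0.01, 95% interval -0.12 to 0.09). Pfkl, the liver-type subunit, averaged 20.7 ± 0.83 FPKM in TBI and 20.8 ± 0.883 FPKM in Sham. Pfkp, the platelet-type subunit, had 24.9, 24.7, 18.8, 23.8 and 22.0 FPKM in TBI, against 20.1, 20.4, 13.7, 16.4 and 18.4 FPKM in Sham. For Pfkp, 4 of 5 TBI libraries were above every Sham library and TBI 3 was not. Its log2 fold change was 0.32 (approximate SE 0.11, 95% interval 0.08 to 0.56), short of the threshold at an edgeR adjusted p of 0.17.

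The other upper members showed small differences. Gpi1, which turns glucose phosphate into fructose phosphate, averaged 79.6 ± 5.90 FPKM in TBI and 84.9 ± 2.94 FPKM in Sham (log2 fold change -0.13, edgeR adjusted p 0.32). Pfkfb2 and Pfkfb3 set the level of the sugar bisphosphate that activates phosphofructokinase. Pfkfb2 averaged 4.64 ± 0.168 FPKM in TBI and 4.44 ± 0.475 FPKM in Sham. Pfkfb3 averaged 3.48 ± 0.405 FPKM in TBI and 3.72 ± 0.647 FPKM in Sham (log2 fold change -0.13, 95% interval -0.42 to 0.15). Tpi1, which interconverts the triose phosphates, averaged 142 ± 6.16 FPKM in TBI and 138 ± 5.86 FPKM in Sham (log2 fold change 0.01, 95% interval -0.10 to 0.11).

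In lower glycolysis, from triose phosphate to pyruvate, 0 of 6 genes were called by edgeR, DESeq2 or limma, and 0 had an unadjusted p under 0.05. Pkm, the pyruvate kinase of brain and muscle, had 184, 198, 200, 210 and 194 FPKM in TBI, against 186, 187, 182, 198 and 199 FPKM in Sham. Its log2 fold change was 0.01 (approximate SE 0.05, 95% interval -0.10 to 0.12). Eno2, the neuronal enolase, had 134, 122, 133, 134 and 124 FPKM in TBI, against 110, 124, 124, 118 and 141 FPKM in Sham. The spread within Sham was wider than the distance between the means, and the log2 fold change was 0.03 (approximate SE 0.07, 95% interval -0.12 to 0.18). Eno1, the enolase of glia and most other cells, averaged 65.6 ± 4.22 FPKM in TBI and 62.0 ± 2.40 FPKM in Sham (log2 fold change 0.04, 95% interval -0.07 to 0.16).

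The remaining lower members also stayed short of the threshold. Pgk1, which makes ATP from bisphosphoglycerate, averaged 96.1 ± 10.6 FPKM in TBI and 98.6 ± 11.4 FPKM in Sham. Pgam1, the mutase of the next step, averaged 128 ± 4.35 FPKM in TBI and 120 ± 9.97 FPKM in Sham (log2 fold change 0.06, 95% interval -0.08 to 0.20). Gapdh, which oxidises triose phosphate, had 13.4, 14.6, 11.9, 33.6 and 11.5 FPKM in TBI, against 10.6, 10.7, 19.3, 14.0 and 13.8 FPKM in Sham. TBI 4 stood apart from the other 9 libraries. For Gapdh the log2 fold change was 0.27 (95% interval -0.40 to 0.93) with all libraries and -0.12 without TBI 4. Gapdh has near-identical processed pseudogenes, 3 of them listed by the name Gapdh-ps in the table, and how reads shared between copies were counted is not stated, so its level is uncertain.

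The lactate dehydrogenases interconvert pyruvate and lactate. Neither was called by edgeR, DESeq2 or limma. Ldha, the form that favours lactate production, had 60.4, 62.1, 61.1, 65.8 and 64.9 FPKM in TBI, against 76.0, 67.7, 60.8, 71.8 and 66.5 FPKM in Sham. All TBI libraries were below the 4 highest Sham libraries, and Sham 3 lay among them. Its log2 fold change was -0.16 (approximate SE 0.06, 95% interval -0.29 to -0.03), with an unadjusted p of 0.019 and an edgeR adjusted p of 0.21. Ldhb, the form that favours lactate use and is known from neurons, had 162, 214, 261, 186 and 190 FPKM in TBI, against 250, 224, 182, 188 and 280 FPKM in Sham. Ldhb varied widely in both groups, and its log2 fold change was -0.19 (approximate SE 0.15, 95% interval -0.51 to 0.13).

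None of the 3 sugar carriers was called by edgeR, DESeq2 or limma, and 0 had an unadjusted p under 0.05. Slc2a1, the glucose carrier of the blood-brain barrier and of astrocytes, had 32.8, 40.5, 34.3, 33.1 and 34.7 FPKM in TBI, against 34.2, 28.9, 35.3, 37.5 and 32.2 FPKM in Sham. The groups overlapped, with a log2 fold change of 0.02 (approximate SE 0.08, 95% interval -0.16 to 0.21). Slc2a3, the carrier of neurons, had 20.5, 24.8, 4.81, 25.9 and 19.6 FPKM in TBI, against 25, 24.1, 19.1, 20.5 and 20.5 FPKM in Sham. TBI 3 lay far below all other libraries. For Slc2a3 the log2 fold change was -0.23 (95% interval -0.98 to 0.52) with it and 0.02 without it. Slc2a5, the fructose carrier of microglia, averaged 1.19 ± 0.197 FPKM in TBI and 0.978 ± 0.0767 FPKM in Sham (log2 fold change 0.24, 95% interval -0.06 to 0.53), while the microglia marker sum was 2.82-fold higher in TBI.

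Of the 3 lactate carriers, 0 were called by edgeR, DESeq2 or limma, and 1, Slc16a1, was higher at an unadjusted p under 0.05. Slc16a1, the carrier of endothelium, astrocytes and oligodendrocytes, had 10.9, 10.5, 9.52, 8.05 and 11.9 FPKM in TBI, against 7.19, 8.32, 6.75, 7.88 and 8.78 FPKM in Sham. TBI 4 fell within the Sham range and the other 4 TBI libraries lay above it. Slc16a1 had a log2 fold change of 0.35 (approximate SE 0.11, 95% interval 0.11 to 0.59, edgeR adjusted p 0.13), and without TBI 4 it was 0.43 and was called (edgeR adjusted p 0.023). The sum of 6 endothelial markers was 30.8 to 38.4 FPKM in TBI and 25.1 to 32.6 FPKM in Sham, 1.17-fold higher in TBI on average. Of the 6, edgeR called 1 higher, Cdh5 (log2 fold change 0.34, adjusted p 0.033). The part of endothelial cells in the Slc16a1 values was not tested.

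Slc16a7, the carrier of neurons, had 3.21, 0.557, 0.545, 0.588 and 0.599 FPKM in TBI, against 0.579, 0.742, 0.734, 0.833 and 3.14 FPKM in Sham. TBI 1 and Sham 5 stood several-fold above the rest of their groups. Its log2 fold change was -0.17 (95% interval -1.59 to 1.25, edgeR adjusted p 0.94) and moved with these libraries: it was -1.11 without TBI 1, 0.56 without Sham 5 and -0.37 (edgeR adjusted p 0.23) without both. TBI 1 was also the library with the highest sum of 4 choroid plexus markers, 861 FPKM against at most 28.3 FPKM elsewhere, whereas that sum in Sham 5 was 1.31 FPKM. Slc16a3, the lactate exporter of glycolytic cells and astrocytes, averaged 0.657 ± 0.204 FPKM in TBI and 0.555 ± 0.235 FPKM in Sham (log2 fold change 0.20, 95% interval -0.44 to 0.84).

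Pyruvate dehydrogenase admits pyruvate to the citric acid cycle, and the Pdk kinases switch it off. None of the 4 genes was called by edgeR, DESeq2 or limma, and 1, Pdk1, was higher at an unadjusted p under 0.05. Pdha1, the catalytic subunit, had 57.7, 60.2, 57.9, 61.4 and 54.9 FPKM in TBI, against 66.5, 61.1, 57.4, 58.1 and 61.5 FPKM in Sham (log2 fold change -0.10, 95% interval -0.21 to 0.01). Pdk2, the most abundant kinase, had 28.3, 30.2, 32.5, 33.4 and 31.3 FPKM in TBI, against 28.0, 27.7, 26.5, 30.9 and 28.4 FPKM in Sham (log2 fold change 0.10, 95% interval -0.03 to 0.23). Both overlapped between the groups.

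Pdk1, a kinase known as a hypoxia target, had 9.12, 10.2, 9.94, 8.16 and 7.66 FPKM in TBI, against 6.79, 8.20, 7.03, 7.01 and 6.15 FPKM in Sham. TBI 4 and TBI 5 lay below Sham 2, the highest Sham library. Pdk1 had a log2 fold change of 0.32 (approximate SE 0.10, 95% interval 0.11 to 0.53, edgeR adjusted p 0.12). Pdk4, the kinase known from fasting and lipid use, averaged 3.18 ± 0.241 FPKM in TBI and 2.87 ± 0.398 FPKM in Sham (log2 fold change 0.11, 95% interval -0.11 to 0.33).

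In the pentose phosphate pathway 0 of 4 genes were called by edgeR, DESeq2 or limma, and 1, Pgd, was higher at an unadjusted p under 0.05. G6pdx, the entry enzyme and first source of NADPH, averaged 11.6 ± 1.5 FPKM in TBI and 10.1 ± 1.07 FPKM in Sham (log2 fold change 0.16, 95% interval -0.07 to 0.40). Pgd, the other source of NADPH, averaged 5.85 ± 0.389 FPKM in TBI and 5.10 ± 0.390 FPKM in Sham (log2 fold change 0.16, 95% interval 0.01 to 0.31, edgeR adjusted p 0.30). In both cases the groups overlapped.

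Taldo1 and Tkt return pentoses to glycolysis. Taldo1 had 27.9, 28.0, 32.1, 29.3 and 31.1 FPKM in TBI, against 26.9, 25.6, 26, 29.1 and 28.2 FPKM in Sham (log2 fold change 0.09, 95% interval -0.04 to 0.22). Tkt had 15.5, 16.4, 16.1, 16 and 17.4 FPKM in TBI, against 15.3, 15.4, 15.5, 17.2 and 17.5 FPKM in Sham (log2 fold change -0.03, 95% interval -0.15 to 0.09). For Taldo1 3 of 5 TBI libraries were above every Sham library, and for Tkt the groups covered nearly the same range.

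**Figure D3:**
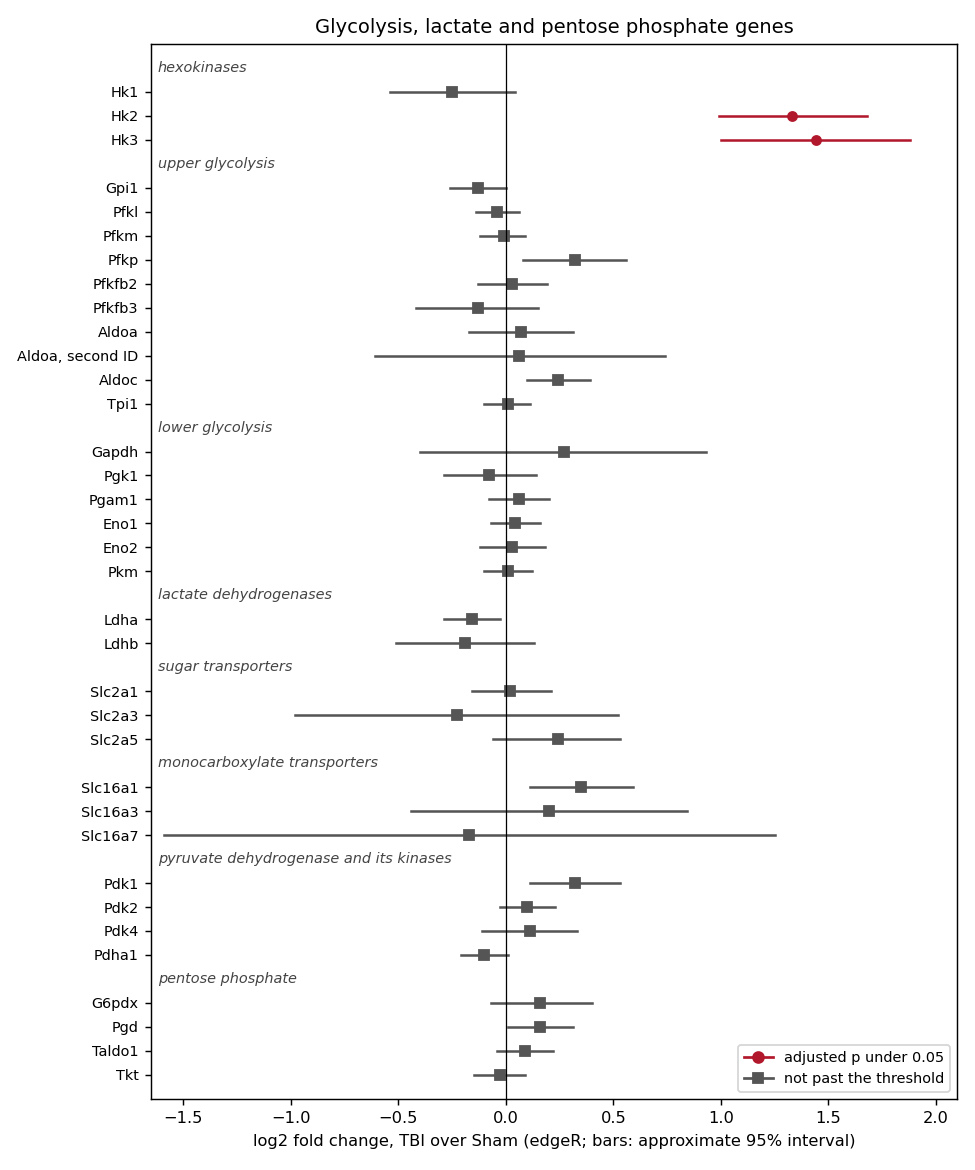
The log2 fold change of TBI over Sham for each row, by role, from edgeR (squares or circles; bars are approximate 95% intervals; n = 5 libraries each). Hk2 at 1.33 and Hk3 at 1.44 are past the threshold (circles), and the widest intervals belong to Slc16a7, Slc2a3, the second Aldoa ID and Gapdh.

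Isoforms of 1 enzyme or carrier were then compared within each library, as the log2 ratio of their FPKM, in 14 pairs with exact two-sided permutation tests adjusted over the 14. With 5 against 5 libraries the smallest p possible is 0.0079, and none of the 14 pairs passed after adjustment. The hexokinase pairs came closest. Both had this smallest p, so a larger shift in them alone could not have brought them past the threshold. The log2 ratio of Hk2 to Hk1 was -4.21, -4.92, -4.20, -5.52 and -5.00 in TBI, against -6.47, -6.36, -6.18, -6.60 and -6.21 in Sham, a difference of 1.59 (exact permutation p = 0.0079, adjusted p = 0.056). The log2 ratio of Hk3 to Hk1 averaged -5.38 ± 0.63 in TBI and -7.09 ± 0.26 in Sham (SD, n = 5 each), a difference of 1.72 (exact permutation p = 0.0079, adjusted p = 0.056). For both pairs the groups did not overlap, and TBI 1 and TBI 3, the libraries with the lowest Hk1, had the highest ratios.

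For enolase and lactate dehydrogenase the mean ratios of the groups were within 0.03 of each other on the log2 scale. The log2 ratio of Eno1 to Eno2 averaged -0.98 ± 0.12 in TBI and -0.99 ± 0.12 in Sham (difference 0.01, SE 0.08). The log2 ratio of Ldha to Ldhb averaged -1.67 ± 0.27 in TBI and -1.70 ± 0.25 in Sham (difference 0.03, SE 0.17). For Aldoc to Aldoa the difference was 0.18 (SE 0.15), and Aldoa varied more between libraries (coefficient of variation 14.1% in TBI and 12.6% in Sham) than Aldoc (6.65% in TBI and 7.81% in Sham). For Pfkp to Pfkm it was 0.34 (SE 0.14, exact permutation p = 0.056, adjusted p = 0.26).

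Among the carriers the ratios followed the libraries in which 1 isoform stood apart. The log2 ratio of Slc2a1 to Slc2a3 was 2.83 in TBI 3 and 0.35 to 0.82 in the other TBI libraries, against 0.26 to 0.88 in Sham. The ratio of Slc16a1 to Slc16a7 was lowest in TBI 1 and in Sham 5, and its difference was 0.63 (SE 0.62, exact permutation p = 0.37, adjusted p = 0.65). Pdk1 against Pdk2 differed by 0.22 (SE 0.13) and Pdk4 against Pdk2 by 0.02 (SE 0.12) on the log2 scale.

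**Figure D4:**
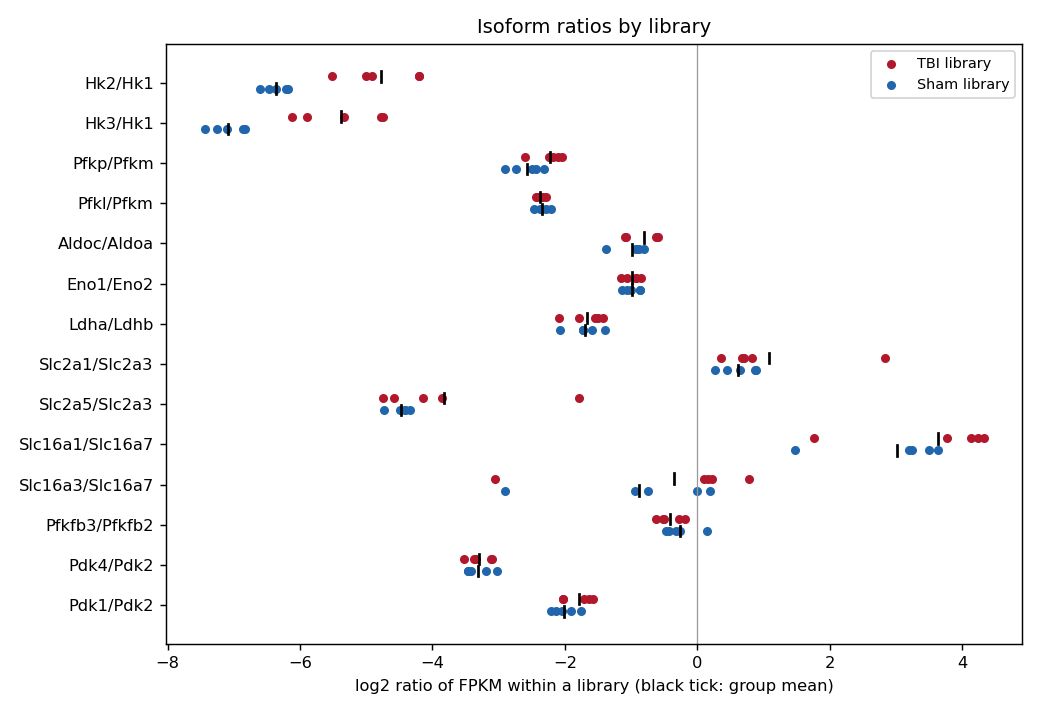
The log2 ratio of FPKM between isoforms within each library for the 14 pairs (TBI red, above; Sham blue, below; ticks are group means; n = 5 libraries each). The TBI and Sham points separate for Hk2/Hk1 and Hk3/Hk1. TBI 3 stands apart for pairs with Slc2a3, and TBI 1 and Sham 5 for pairs with Slc16a7.

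Other genes of the same and of neighbouring pathways were taken from lists written for this comparison, and 63 of 80 were tested. Of the 63, 5 were called higher and 1 lower, against 3.57% and 0.472% of all tested genes. The median log2 fold change was 0.03. Each list is short, and its counts stand against the same shares. Glycogen metabolism had 2 of 14 genes higher and 0 lower. Pygb, the brain glycogen phosphorylase that releases glucose phosphate from glycogen, had 41.2, 48.5, 45.4, 44.0 and 44.8 FPKM in TBI, against 35.5, 36.3, 31.3, 35.3 and 37.2 FPKM in Sham. The groups did not overlap, and the log2 fold change was 0.31 (approximate SE 0.06, edgeR adjusted p 0.0093). Ppp1r3c, a subunit that targets a phosphatase to glycogen, averaged 16.7 ± 0.896 FPKM in TBI and 13 ± 1.11 FPKM in Sham (log2 fold change 0.33 with SE 0.07, edgeR adjusted p 0.016). It missed the threshold without TBI 1 and TBI 3 (edgeR adjusted p 0.092) and without TBI 1 and Sham 5 (0.094), alternatives chosen after seeing the data.

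Of 12 tested genes in a list of Hif1a, a subunit of hypoxia-inducible factor, and targets of the factor, 2 were higher and 1 lower. The other gene of the list, Car9, was too low to be tested. Ddit4, an inhibitor of growth signalling through mTOR, had 21.8, 27.4, 25.6, 21.3 and 19.9 FPKM in TBI, against 15.3, 12.3, 14.3, 16.3 and 15.5 FPKM in Sham. It did not overlap between groups and its log2 fold change was 0.61 (approximate SE 0.11, edgeR adjusted p 0.0077). Adm, a vasodilator peptide, averaged 1.51 ± 0.316 FPKM in TBI and 0.752 ± 0.179 FPKM in Sham (log2 fold change 0.95 with SE 0.21, edgeR adjusted p 0.025). Vegfa, the growth factor of blood vessels, fell to 11.6 ± 1.24 FPKM in TBI, against 14.9 ± 1.22 FPKM in Sham (log2 fold change -0.40 with SE 0.08, edgeR adjusted p 0.017). Adm missed the threshold without TBI 1, 2 or 3 or Sham 1, 3 or 5 (edgeR adjusted p up to 0.069), and Vegfa without TBI 1, 2 or 3 (up to 0.056). With the replicate number as a block, Ddit4 and Adm missed it and Vegfa did not. Without both TBI 1 and TBI 3 the edgeR adjusted p was 0.065 for Ddit4, 0.19 for Adm and 0.16 for Vegfa. Without TBI 1 and Sham 5 it was 0.036 for Ddit4, 0.12 for Adm and 0.11 for Vegfa.

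Of 4 other glucose carriers tested, 1 was higher. Slc2a12, a carrier outside the classical set, averaged 0.999 ± 0.270 FPKM in TBI and 0.525 ± 0.0755 FPKM in Sham (log2 fold change 0.89 with SE 0.19, edgeR adjusted p 0.025), and it missed the threshold without TBI 5 or Sham 1, 2 or 4 (edgeR adjusted p up to 0.072) and without TBI 1 and TBI 3 or TBI 1 and Sham 5 (0.061 each). Slc2a12 also missed it with the replicate number as a block. The 4 remaining lists had no gene called by edgeR. In 3 of them, 12 further genes of glycolysis and gluconeogenesis, 6 of the pentose phosphate pathway and 5 of lactate transport and use, 0 had an unadjusted p under 0.05 and 0 were called by DESeq2 or limma. Their smallest p belonged to Pck2, the mitochondrial enzyme that makes phosphoenolpyruvate (log2 fold change 0.19, edgeR adjusted p 0.49), H6pd, the pentose phosphate enzyme of the endoplasmic reticulum (0.27, edgeR adjusted p 0.37), and Ldhd, which oxidises the D form of lactate (-0.14, edgeR adjusted p 0.79).

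The fourth list held 10 genes of pyruvate entry to mitochondria, with a median log2 fold change of -0.07. An unadjusted p under 0.05 was reached by 3 of the 10, all lower, against 15.0% of all tested genes. Of the 10, limma called 0 and DESeq2 called 1, which was lower. That was Dlat, a core subunit of pyruvate dehydrogenase, with 15.4, 14.7, 15.1, 16.1 and 15.6 FPKM in TBI, against 16.6, 16.1, 16.9, 16.8 and 16.6 FPKM in Sham. TBI 4, the highest TBI library, was level with Sham 2, the lowest Sham library, to the digits given. Dlat had a log2 fold change of -0.15 (approximate SE 0.04), with an adjusted p of 0.11 in edgeR and 0.015 in DESeq2.

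Neuronal markers gave the background for the neuronal isoforms. The sum of 8 of them, Snap25 and Tubb3 the highest, was 965 to 1109.9 FPKM in TBI and 1088.7 to 1237.2 FPKM in Sham, and 1 of the 8, Nefl, was called lower. The sum of 6 oligodendrocyte markers was 439 to 731 FPKM in TBI and 448 to 680 FPKM in Sham, with 0 of 6 called by edgeR, DESeq2 or limma and 0 at an unadjusted p under 0.05. Markers of mural cells and fibroblasts summed to 38.4 to 50.6 FPKM in TBI and 36.2 to 42.3 FPKM in Sham. Of these 6, edgeR called 2 higher, Col1a1 (log2 fold change 1.25, adjusted p 0.0015) and Col1a2 (0.82, adjusted p 0.0055). Rgs5 and Acta2, the highest of the list, were not called. Erythrocyte markers summed to 113 to 347 FPKM in TBI and 97.2 to 194 FPKM in Sham. Skeletal muscle markers summed to 3.84 to 6.31 FPKM in TBI and 4.71 to 7.52 FPKM in Sham. Neither of these lists had a gene called by edgeR.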

How the data were processed

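Cortical RNA of 10 mice was sequenced as paired ends of 150 bases, per the labels' protocols. Per the submitters' processing notes, cutadapt 1.9, HISAT2, StringTie and the genome mm10 were used; other versions, the annotation, the counting tool and strandedness are not given in the sources used here. The deposited table gives whole-number counts and FPKM per gene and library, per the file headers. Of the deposited count values from 1 to 12, 42.6% were 4, 8 or 12. Total counts were 47.6 to 71.3 megacounts per library. The FPKM were scaled by the authors to transcript length and library size, and the fill value that stands beside a count of 0 was read as 0. Groups and replicate numbers came from the sample titles, and each library is from a separate mouse per the series design.

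Genes with at least 0.5 FPKM in at least 5 of 10 libraries entered edgeR 4.0.16 (R 4.3.3), a quasi-likelihood F test of group alone after TMM scaling, two-sided. P-values were adjusted by Benjamini-Hochberg over 16316 genes, with a threshold of 0.05. An SE was taken by dividing the size of the log2 change by the root of its F value, and the 95% intervals use it with edgeR's degrees of freedom; both are approximate. The fit and the permutation test were tested on simulated data. Levels are means ± SD over n = 5. Isoform ratios and marker sums were compared by exact permutation over the 252 arrangements of the libraries. Promoter windows of 250 bases were from RefSeq on GRCm38.p6. The members, lists, markers and pairs were chosen with earlier results of these data known. All members are named, and values of every library are given for members past the threshold and for the 2 most abundant of each role. Of the other pathway lists the called genes, or else the gene with the smallest p, are named. Per-library values of Gapdh, Pfkp, Pdk1, Pygb, Ddit4 and Dlat were added after their values were seen. Alternatives were DESeq2 1.42.0, limma 3.58.1 on log2 FPKM, other scalings and minimum levels, counts divided by 4, replicate number as a block, and leaving out libraries. 0 sample columns were left unused.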

Additional observations from a re-analysis of the deposited data

Results flagged for a closer look

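Within the 70 groups of 5 libraries formed by the 35 rows, 6 held a library whose gap to the nearest other was a larger share of the group's range than Dixon's 95% limit of 0.71 allows; chance alone gives about 3.5, or 1 in 20. Slc16a7, the neuronal lactate carrier, was so in both groups, with 3.21 FPKM in TBI 1 (other TBI libraries 0.545 to 0.599) and 3.14 FPKM in Sham 5 (other Sham libraries 0.579 to 0.833). Gapdh had 33.6 FPKM in TBI 4, where the other TBI libraries had 11.5 to 14.6. Slc2a1 had 40.5 FPKM in TBI 2 (others 32.8 to 34.7), and the second Aldoa ID had 1.19 FPKM in TBI 5 (others 0.650 to 0.771). Pgk1 had 119 FPKM in Sham 4, where the other Sham libraries had 90.2 to 97.2.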

How the results depend on the processing

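Hk2 and Hk3 kept their direction and their calls under every alternative in which they were tested, with log2 fold changes of 0.64 to 1.45 for Hk2 and 0.54 to 1.57 for Hk3 and adjusted p of at most 0.011 and 0.024; the lowest values are from log2(FPKM + 1), which shrinks low genes. A minimum of 2 FPKM left both untested, so 0 of 29 member rows were called, and 385 of 11731 genes (659 of 16316 otherwise). With no minimum level, 613 of 32852 genes, 2 member rows and 8 of 78 other pathway genes (7 higher, 1 lower) were called. DESeq2 called 1066 genes. Without TBI 1 and Sham 5, 391 genes and 2 other pathway genes (6 otherwise) were called, and without TBI 1 and TBI 3, 293 and 1; both were chosen after seeing the data. Leaving out 1 library gave 482 to 722 genes, 2 to 3 member rows, 4 to 6 other pathway genes, 0 isoform pairs and 3 to 4 marker lists. For the isoform pairs such a count of 0 says little, since few arrangements of the remaining libraries are possible and adjustment is over 14 pairs.

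Over single members, other pathway genes and pairs, 1049 of 1117 recomputed values kept their side of the threshold and did not change sign, 26 lost a call, 8 gained one, and 34 changed sign, in 14 results of which 0 were past the threshold either way. Leaving out 1 library, the log2 fold change ran from -0.04 to 0.01 for Pfkm, -0.01 to 0.07 for Pfkfb2, -0.12 to 0.34 for the second Aldoa ID, -0.01 to 0.04 for Tpi1, -0.12 to 0.44 for Gapdh, -0.01 to 0.08 for Eno2, -0.03 to 0.07 for Slc2a1, -0.35 to 0.02 for Slc2a3 and -1.11 to 0.56 for Slc16a7, and the difference in log2 ratio from -0.03 to 0.05 for Eno1/Eno2, -0.06 to 0.14 for Ldha/Ldhb and -0.03 to 0.09 for Pdk4/Pdk2. Without TBI 1 and TBI 3 the log2 fold change was -0.08 for Aldoa, -0.01 for Tpi1 and 0.06 for Slc2a3, and without TBI 1 and Sham 5 it was -0.04 for the second Aldoa ID and 0.02 for Tkt. Under limma with either pseudocount it was 0.02 for Pfkm and 0.01 for Tkt. The causes were not tested.

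With the replicate number as a block, 402 genes, 4 member rows (Hk2, Hk3, Pfkp at an edgeR adjusted p of 0.035 and Pdk1 at 0.045) and 2 other pathway genes (Pygb at 0.049 and Vegfa at 0.016) were called. The edgeR adjusted p under the block was 0.055 for Ppp1r3c, 0.059 for Slc2a12, 0.078 for Ddit4 and 0.081 for Adm. Swaps within 5 pairs cannot give a p under 0.0625, so no isoform pair could pass. Deviations of same-numbered TBI and Sham libraries correlated at -0.006, 0.196, 0.105, -0.172 and 0.091. For numbers 2 and 5 this was above the correlations of that TBI library with the other Sham libraries (at most 0.094 and 0.064). For number 4 it was below them (at least -0.037), and for 1 and 3 within their range. These 5 values cannot settle whether the numbers mark pairs. The wide intervals of Slc16a7, Slc2a3 and Gapdh do not exclude moderate changes, and Hk2, Hk3 and Slc16a3 rest on low levels.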
